A study of Arabidopsis thaliana with 12 samples.

Results

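The genes described here belong to 3 families that make, conjugate or respond to the plant hormone auxin in Arabidopsis thaliana. They were picked by a rule on the symbol, drawn up with earlier results of these data known: probe sets of the array whose annotation names 1 gene with a symbol of the form GH3 with a number, IAA, SAUR, ARF, PIN or YUC. The rule gave 15 genes among the 13513 probe sets that name 1 gene, of 22746 probe sets tested. They were 4 GH3 genes (GH3.1, GH3.3, GH3.9 and GH3.17), 7 IAA genes (IAA18, IAA20, IAA29, IAA30, IAA31, IAA33 and IAA34) and 4 YUC genes (YUC2, YUC4, YUC6 and YUC11). No SAUR, ARF or PIN gene was named by the annotation, and none of the 15 had a second probe set of its own. The gene table of assembly TAIR10.1 holds 85 symbols of these forms, so the other 70 genes, among them the transport genes of the PIN family, are not analysed here.

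Total RNA of whole seedlings aged 5 days was hybridised to 12 ATH1 arrays of Affymetrix, giving 6 groups of 2. All seedlings grew at 21 °C on 1% sucrose medium, in cycles of darkness and dim light (20 µmol m-2 s-1), without or with lincomycin, an antibiotic that blocks translation in plastids. Wild type, gun1-1 and abi4-102 seedlings were grown under both conditions, all of ecotype Col-0, and Col-0 alone stands for the wild type here. GUN1 is a pentatricopeptide repeat protein of the plastid and ABI4 a transcription factor, and each mutant was represented by 1 allele. The labels disagree on the dose of lincomycin, with 220 µg/ml under treatment and 200 µg/ml under source. They also tag replicate 2 of gun1-1 without lincomycin with every genotype of the study, and it was placed by its title. The values are log2 signals, differences are on that log2 scale, and each group mean is of n = 2 arrays.

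Indole-3-acetic acid, the main natural auxin, is made from indole-3-pyruvic acid by the YUC flavin monooxygenases. GH3 enzymes join it to amino acids, which removes active hormone from the cell, and several GH3 genes are themselves induced by auxin. Aux/IAA proteins bind auxin response factors and repress their target genes until auxin, held by the TIR1/AFB receptors, brings about their breakdown. In seedlings the hormone steers hypocotyl growth, cotyledon opening, tropisms and the branching of roots.

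Of the 15 genes, 3 passed the test in at least 1 of 10 comparisons and 12 passed in none, while 28.7% of all probe sets passed in at least 1. GH3.3 rose with lincomycin, while IAA29 and IAA34 stood apart in abi4-102 grown without it. Calls rest on limma's moderated test, two-sided, with p-values adjusted by the method of Benjamini and Hochberg over all 22746 probe sets and a threshold of 0.05. In total 6 of 150 tests of these genes were calls, or 4%, beside 5.83% of the tests of all probe sets. SE is the standard error of that test, and intervals are at 95%.

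GH3.3, an amido synthetase that conjugates auxin and a gene known for quick induction by it, had the widest range of the 15, from 3.80 to 6.75 across the arrays. In Col-0 it stood at 3.85 and 3.80 without lincomycin and at 5.61 and 6.75 with it. In gun1-1 the values were 4.78 and 4.09 without and 6.23 and 5.95 with lincomycin. In abi4-102 they were 4.80 and 4.66 without and 5.66 and 5.90 with it. In every genotype both arrays with lincomycin lay above both without. All 6 arrays with lincomycin lay above all 6 without, and Col-0 without lincomycin held the lowest values.

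Lincomycin raised GH3.3 5.11-fold in Col-0 (log2 difference 2.35, SE 0.31, limma adjusted p = 0.000489) and 3.15-fold in gun1-1 (1.66, SE 0.31, adjusted p = 0.00879). In abi4-102 the ratio was 2.07 (log2 difference 1.05, SE 0.31), with an adjusted p of 0.0505 that missed the threshold. In every genotype its values without lincomycin (3.80 to 4.80) lay below the array medians (5.44 to 5.52). Whether they were above background was not tested, so each fold is a ratio of signals. The rise in Col-0 was known when the genes were chosen and is no independent evidence on the group. The call in gun1-1 was lost without gun1-1 without lincomycin replicate 2 (log2 difference 1.31, adjusted p = 0.0618) and without gun1-1 with lincomycin replicate 1 (1.51, adjusted p = 0.05003). In abi4-102 leaving out 1 array gave differences of 0.93 to 1.17 and adjusted p from 0.00915, without either array of Col-0 with lincomycin, to 0.22, without abi4-102 without lincomycin replicate 2. It was also under the threshold without either array of gun1-1 without lincomycin (0.0416) and when no other genotype was fitted (0.0117). With only the upper 60% of probe sets fitted, the limma adjusted p in abi4-102 was 0.0385. In whole seedlings a change in the number of cells of a type and a change in RNA per cell cannot be told apart.

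The responses of GH3.3 were not shown to differ between genotypes. The response in abi4-102 was lower than in Col-0 by a log2 difference of -1.31 (interval -2.28 to -0.33), with an unadjusted p of 0.0136 and a limma adjusted p of 0.381. For gun1-1 against Col-0 it was -0.70 (interval -1.68 to 0.28, adjusted p = 0.501), and for gun1-1 against abi4-102 0.61 (interval -0.37 to 1.58). Without replicate 1 or 2 of Col-0 with lincomycin, the difference was -1.87 or -0.74 for abi4-102 and -1.26 or -0.13 for gun1-1, and it passed in neither case. Leaving out 1 array gave 0.26 to 0.95 for gun1-1 against abi4-102. The group means ran in the order Col-0, gun1-1 and abi4-102 without lincomycin (3.83, 4.43 and 4.73), then abi4-102, gun1-1 and Col-0 with it (5.78, 6.09 and 6.18). Without lincomycin abi4-102 lay 0.90 above Col-0 (SE 0.31, adjusted p = 0.198, or 0.0114 when those 4 arrays were fitted alone and 0.0612 to 0.634 when 1 array was left out) and gun1-1 0.61 above it (adjusted p = 0.808), in both cases with no overlap of arrays. With lincomycin the arrays of each mutant overlapped those of Col-0, and the differences were -0.09 in gun1-1 and -0.40 in abi4-102. The sign of each turned positive without Col-0 with lincomycin replicate 2, at 0.48 and 0.17.

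The spread of GH3.3 between replicates was wide. Its arrays of Col-0 with lincomycin differed by 1.13 and those of gun1-1 without lincomycin by 0.69, against 0.05 in Col-0 without lincomycin. Its residual SD over the 6 groups was 0.40, above that of 97.6% of probe sets. Without replicate 1 or 2 of Col-0 with lincomycin, the difference in Col-0 was 2.92 or 1.79, and it was a call in each case.

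**Figure D1:**
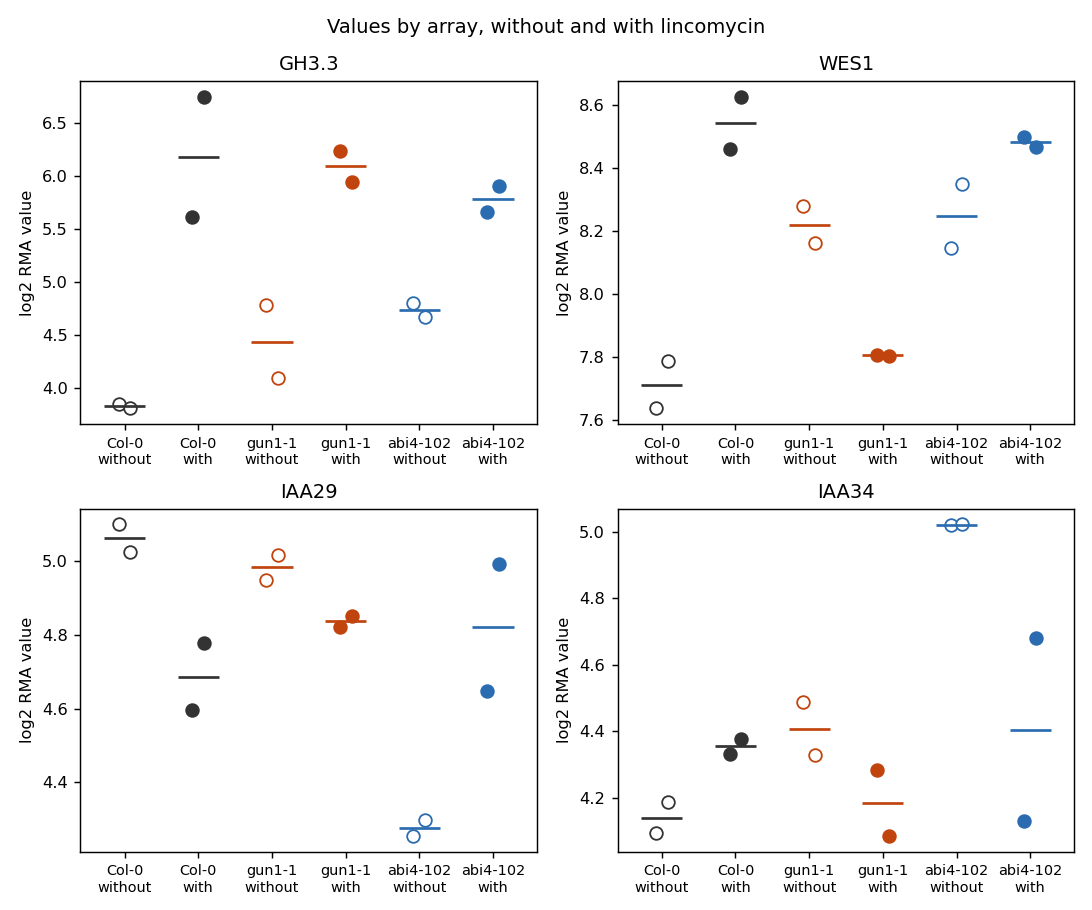
Log2 value of GH3.3, WES1 (GH3.5), IAA29 and IAA34 on each of the 12 arrays (points; open without, filled with lincomycin), by group, with the mean of 2 arrays as a bar; each panel has its own vertical scale. GH3.3 with lincomycin lay at 5.61 or more in all groups, WES1 rose with lincomycin in Col-0 and was lower with it in gun1-1, and IAA29 was lowest and IAA34 highest in abi4-102 without lincomycin.

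The other GH3 genes of the 15 did not pass in any comparison. GH3.17, whose enzyme is known for joining indole-3-acetic acid to glutamate, ranged from 7.70 to 8.60. It stood at 8.13 and 7.89 in Col-0 without lincomycin and 8.60 and 8.19 with it, at 7.76 and 7.99 in gun1-1 without and 8.03 and 7.70 with it, and at 7.88 and 8.34 in abi4-102 without and 8.45 and 8.51 with it. With lincomycin both gun1-1 arrays lay below both Col-0 arrays, by 0.53 on average (SE 0.19, unadjusted p = 0.018, limma adjusted p = 0.116). Leaving out 1 array moved that difference between -0.74 and -0.33, the latter without Col-0 with lincomycin replicate 1 (adjusted p = 0.484). GH3.1 stayed between 3.39 and 3.95, and GH3.9, annotated as a putative indole-3-acetic acid amido synthetase, between 3.22 and 3.67.

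Of 13 GH3 loci listed by locus rather than by symbol, 7 were measured, so 3 came in addition to the 4 above. WES1, which the gene table also names GH3.5 and whose enzyme acts on auxin and on salicylic acid, stood at 7.64 and 7.79 in Col-0 without lincomycin and at 8.46 and 8.63 with it. In gun1-1 it stood at 8.28 and 8.16 without and at 7.81 and 7.80 with lincomycin. In abi4-102 it stood at 8.14 and 8.35 without and at 8.50 and 8.47 with it. Lincomycin thus raised it in Col-0, where the groups did not overlap, while in gun1-1 both arrays with lincomycin were the lower ones.

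The rise of WES1 in Col-0 was 1.78-fold (log2 difference 0.83, SE 0.12, limma adjusted p = 0.000697). In gun1-1 the gene fell by 0.41 (SE 0.12, adjusted p = 0.0468), a call that was lost under 13 of 18 alternatives, with an adjusted p up to 0.203 when gun1-1 without lincomycin replicate 1 was left out. In abi4-102 the difference was 0.23 (adjusted p = 0.228). The response in gun1-1 was lower than in Col-0 by -1.24 (SE 0.16, adjusted p = 0.00256), and this held under all 18 alternatives. With lincomycin WES1 was lower in gun1-1 than in Col-0 by -0.74 (adjusted p = 0.0024), also under all 18. Without lincomycin it was 0.54 higher in abi4-102 than in Col-0 (adjusted p = 0.049), which held under 2 of 18, and 0.51 higher in gun1-1 (adjusted p = 0.373). The remaining listed loci, AT1G23160 and AT5G51470, carry no symbol in the gene table. AT5G51470 stood at 3.22 and 3.34 in Col-0 without lincomycin and at 2.92 and 2.94 with it, below the array medians (5.44 to 5.52). Whether these values were above background was not tested. AT5G51470 fell by 0.35 in Col-0 (SE 0.11, limma adjusted p = 0.0419). That call was lost without any 1 of the 4 Col-0 arrays (adjusted p from 0.0864 to 0.257) and without either array of abi4-102 without lincomycin (0.0645). It was lost as well with a replicate block (0.0548) and when no other genotype was fitted (0.0772). AT1G23160 did not pass.

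IAA29 and IAA34 are members of the Aux/IAA family, and IAA29 is known to be raised by shade. IAA29 stood at 5.10 and 5.03 in Col-0 without lincomycin and at 4.60 and 4.78 with it. In gun1-1 it stood at 4.95 and 5.02 without and at 4.82 and 4.85 with it. In abi4-102 it stood at 4.25 and 4.30 without and at 4.65 and 4.99 with lincomycin. The abi4-102 arrays without lincomycin were the lowest of the 12, and in abi4-102 the arrays with lincomycin were the higher ones, whereas in Col-0 and gun1-1 they were the lower ones.

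Without lincomycin IAA29 was 1.73-fold lower in abi4-102 than in Col-0 (log2 difference -0.79, SE 0.13, limma adjusted p = 0.0157). All 12 values of IAA29 (4.25 to 5.10) lay below the array medians (5.44 to 5.52), and whether they were above background was not tested. With lincomycin the difference was 0.13 (SE 0.13, interval -0.15 to 0.42, adjusted p = 0.768). In abi4-102 lincomycin raised IAA29 1.46-fold (0.55, SE 0.13, adjusted p = 0.018). In Col-0 the difference with lincomycin was -0.38 (adjusted p = 0.0679, or from 0.0345 without either array of abi4-102 with lincomycin to 0.304 without Col-0 with lincomycin replicate 1), and in gun1-1 -0.15. The response in abi4-102 lay above that in Col-0 by 0.92 (interval 0.52 to 1.32, unadjusted p = 0.000361), but its adjusted p was 0.167, in a comparison in which no probe set passed. Against gun1-1 the difference of responses was -0.69, as gun1-1 minus abi4-102 (unadjusted p = 0.00287, adjusted p = 0.147).

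IAA34 went the other way in abi4-102. It stood at 4.09 and 4.19 in Col-0 without lincomycin and at 4.33 and 4.38 with it. In gun1-1 it stood at 4.49 and 4.33 without and at 4.28 and 4.08 with it. In abi4-102 it stood at 5.02 and 5.02 without and at 4.13 and 4.68 with lincomycin. The abi4-102 arrays without lincomycin were the highest of the 12 and differed by only 0.00234, while the pair with lincomycin was the widest for this gene, at 0.55 apart.

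Without lincomycin IAA34 was 1.84-fold higher in abi4-102 than in Col-0 (log2 difference 0.88, SE 0.16, limma adjusted p = 0.0261). Its values (4.08 to 5.02) also lay below the array medians. With lincomycin the difference was 0.05 (interval -0.31 to 0.41). In abi4-102 lincomycin lowered it 1.53-fold (-0.62, SE 0.16, adjusted p = 0.0303). In Col-0 and gun1-1 the differences were 0.21 and -0.22, and neither passed. The response in abi4-102 minus that in Col-0 was -0.83 (interval -1.33 to -0.33, unadjusted p = 0.00406, adjusted p = 0.281).

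These 4 calls in abi4-102 share the same pair of arrays without lincomycin and so are not independent of each other. The calls of IAA29 and IAA34 against Col-0 were lost when any 1 of the 4 arrays compared was left out, with adjusted p from 0.0711 to 0.137 for IAA29 and from 0.0939 to 0.211 for IAA34, while the differences kept to -0.83 to -0.75 and 0.83 to 0.93. The call of the lincomycin difference of IAA29 in abi4-102 was lost without either array of abi4-102 without lincomycin (adjusted p = 0.0953 and 0.0876) and without its replicate 2 with lincomycin (0.37, adjusted p = 0.105). That of IAA34 was lost without either array without lincomycin (adjusted p = 0.117 and 0.138), and without replicate 1 with lincomycin its log2 difference was -0.34 (adjusted p = 0.171).

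**Figure D2:**
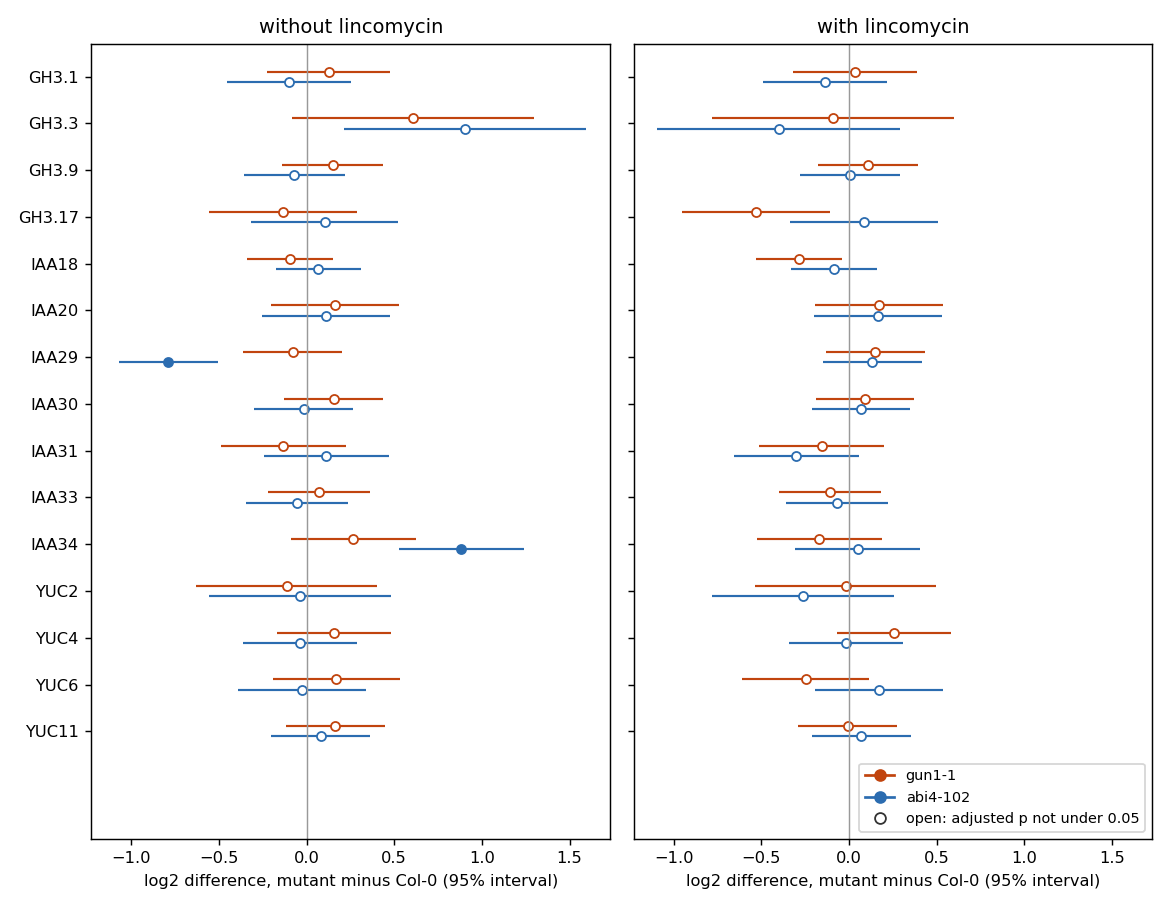
Log2 difference of each mutant from Col-0 (points, with 95% intervals) for the 15 auxin genes, without lincomycin on the left and with it on the right; filled points passed at an adjusted p under 0.05. IAA29 (-0.79) and IAA34 (0.88) in abi4-102 without lincomycin were the points that passed, and no point passed with lincomycin.

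The other 5 IAA genes did not pass in any comparison. IAA18, known from dominant mutants with fewer lateral roots, ranged from 7.41 to 7.76 and had the smallest residual SD of the 15, 0.0803. With lincomycin its gun1-1 arrays (7.47 and 7.42) lay below its Col-0 arrays (7.70 and 7.76), a difference of -0.29 (SE 0.11, unadjusted p = 0.0256, limma adjusted p = 0.144). IAA20, IAA30 and IAA31, relatives known for a missing or altered degradation motif, and IAA33, which is divergent in sequence, stayed within 0.60 of their own lowest array. IAA20 lay between 3.62 and 4.22, IAA30 between 3.40 and 3.75, IAA31 between 2.93 and 3.46, and IAA33 between 3.05 and 3.42.

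None of the 4 YUC genes, which encode the last step of auxin synthesis, passed in any comparison, and 2 of their 40 tests had an unadjusted p under 0.05. YUC6, known from an activation-tagged line with excess auxin, had the smallest p of the family. It stood at 5.39 and 5.11 in Col-0 without lincomycin and 5.28 and 5.27 with it, at 5.53 and 5.31 in gun1-1 without and 4.81 and 5.25 with it, and at 5.34 and 5.11 in abi4-102 without and 5.51 and 5.38 with it. With lincomycin the arrays of gun1-1 were the lower ones and those of abi4-102 the higher ones, while in Col-0 the groups overlapped. The differences were 0.03 in Col-0, -0.39 in gun1-1 (SE 0.16, adjusted p = 0.161) and 0.22 in abi4-102, and the response in gun1-1 minus that in abi4-102 was -0.61 (SE 0.23, unadjusted p = 0.0241, adjusted p = 0.361). Leaving out 1 array gave -0.61 to -0.17 in gun1-1, the latter without its replicate 1 with lincomycin, 0.10 to 0.34 in abi4-102, and -0.83 to -0.39 for the difference of responses.

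YUC2 ranged from 4.84 to 5.95. It stood at 5.62 and 5.85 in abi4-102 without lincomycin and at 4.84 and 5.61 with it, a difference of -0.51 (SE 0.23, adjusted p = 0.193). Without abi4-102 with lincomycin replicate 2 the difference was -0.89 (adjusted p = 0.0309), and without replicate 1 it was -0.13 (adjusted p = 0.802). In Col-0 and gun1-1 its differences with lincomycin were -0.28 and -0.19. YUC4, known from leaves and flowers, stayed between 2.93 and 3.50, and YUC11 between 3.21 and 3.54.

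Counted over the 15 genes, lincomycin in Col-0 gave 1 call, higher, and 14 genes that did not pass, where 17.4% of all probe sets were called, 9.4% as higher and 7.95% as lower. In gun1-1 it gave 1 call, higher, against 10.7% of all probe sets, 5.79% as higher and 4.9% as lower. In abi4-102 it gave 2, IAA29 higher and IAA34 lower, against 13.2%, 7.65% as higher and 5.51% as lower. The median log2 difference of the 15 genes was 0.05 in Col-0, -0.08 in gun1-1 and 0.08 in abi4-102, beside 0.02, -0.01 and 0.02 over all probe sets. Arrays with and without lincomycin did not overlap for 7 of the 15 in Col-0, 5 in gun1-1 and 11 in abi4-102, while 58.2%, 53.2% and 56% of all probe sets were so separated. These counts were not tested against the background shares, and no difference from them is claimed.

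**Figure D3:**
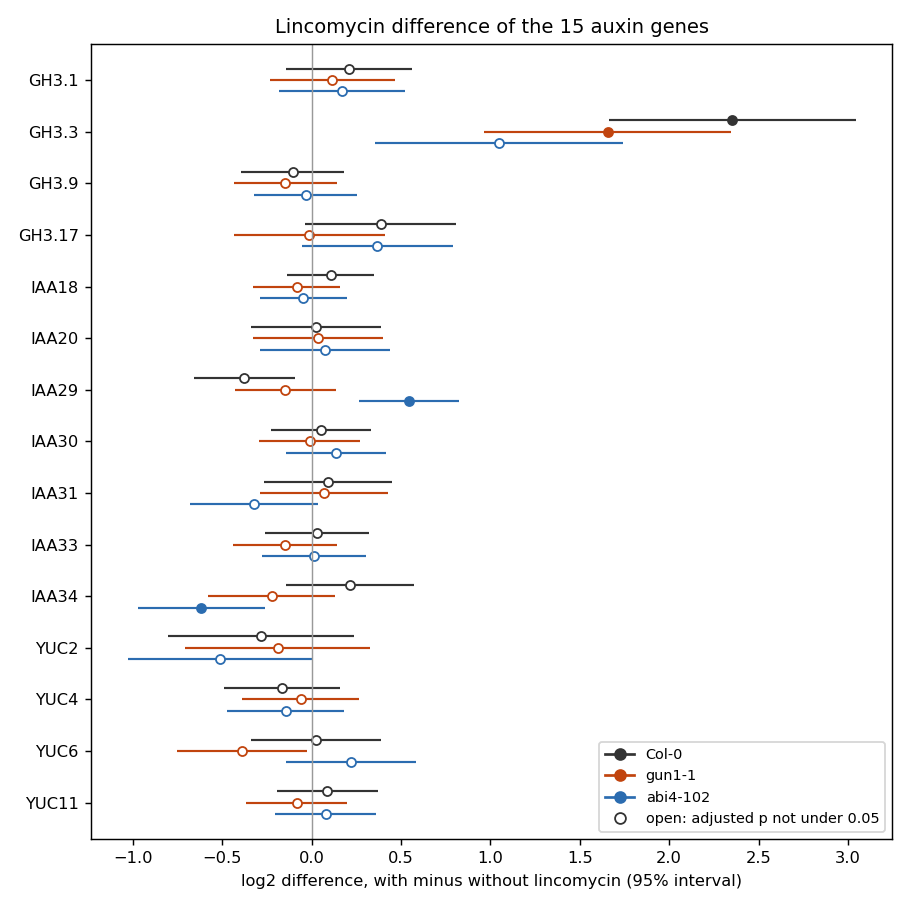
Log2 difference of the 15 auxin genes with minus without lincomycin in Col-0, gun1-1 and abi4-102 (points, with 95% intervals); filled points passed at an adjusted p under 0.05. GH3.3 lay at 2.35, 1.66 and 1.05, IAA29 and IAA34 passed in abi4-102, and the other 12 genes passed in no genotype.

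When the responses to lincomycin were compared between gun1-1 and Col-0 with limma, none of the 15 passed and 0 had an unadjusted p under 0.05, while 4.38% of all probe sets passed. Between abi4-102 and Col-0 none passed either, 3 genes (GH3.3, IAA29 and IAA34) had an unadjusted p under 0.05, and 0% of all probe sets passed. Between gun1-1 and abi4-102 the count was also 0, with 2 at an unadjusted p under 0.05, against 0.532% of all. Without lincomycin gun1-1 differed from Col-0 in none of the 15 (0 at an unadjusted p under 0.05, 0.022% of all probe sets called), and abi4-102 in 2, 1 higher and 1 lower (1.68% of all, 0.914% higher and 0.769% lower). With lincomycin gun1-1 differed in none (2 at an unadjusted p under 0.05, GH3.17 and IAA18), against 10% of all probe sets, and abi4-102 in none (0 at an unadjusted p under 0.05), against 0.457%. The arrays of gun1-1 and Col-0 did not overlap for 6 of the 15 without lincomycin and 6 with it, where 40.6% and 47.7% of all probe sets were so separated. Those of abi4-102 and Col-0 did not for 6 and 4, beside 51.1% and 37.9% of all. For gun1-1 minus Col-0 the 15 genes had medians of 0.15 without and -0.02 with lincomycin, beside 0.01 and -0.03 over all probe sets. For abi4-102 minus Col-0 the medians were -0.02 and 0.005, beside -0.01 and 0.002. These medians were not tested.

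The precision differed between the genes. Of the 15, 6 passed a filter that keeps the upper 60% of probe sets by mean value: GH3.3, GH3.17, IAA18, IAA29, YUC2 and YUC6. The other 9, among them IAA34, had values between 2.93 and 5.02, where array medians lay between 5.44 and 5.52. Of these 9, 8 passed no comparison, with log2 differences from -0.41 to 0.39 over 80 tests and 0 tests at an unadjusted p under 0.05. Over all 12 arrays each of these 8 varied by 0.33 to 0.60, and gaps between 2 replicates of the 9 reached 0.60. With 2 arrays a group the 95% intervals left room for changes. With lincomycin in Col-0 they ran from -0.23 to 0.33 for IAA30 and from -0.34 to 0.39 for IAA20. For these 8 genes no statement on an absence of change can be made.

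**Figure D4:**
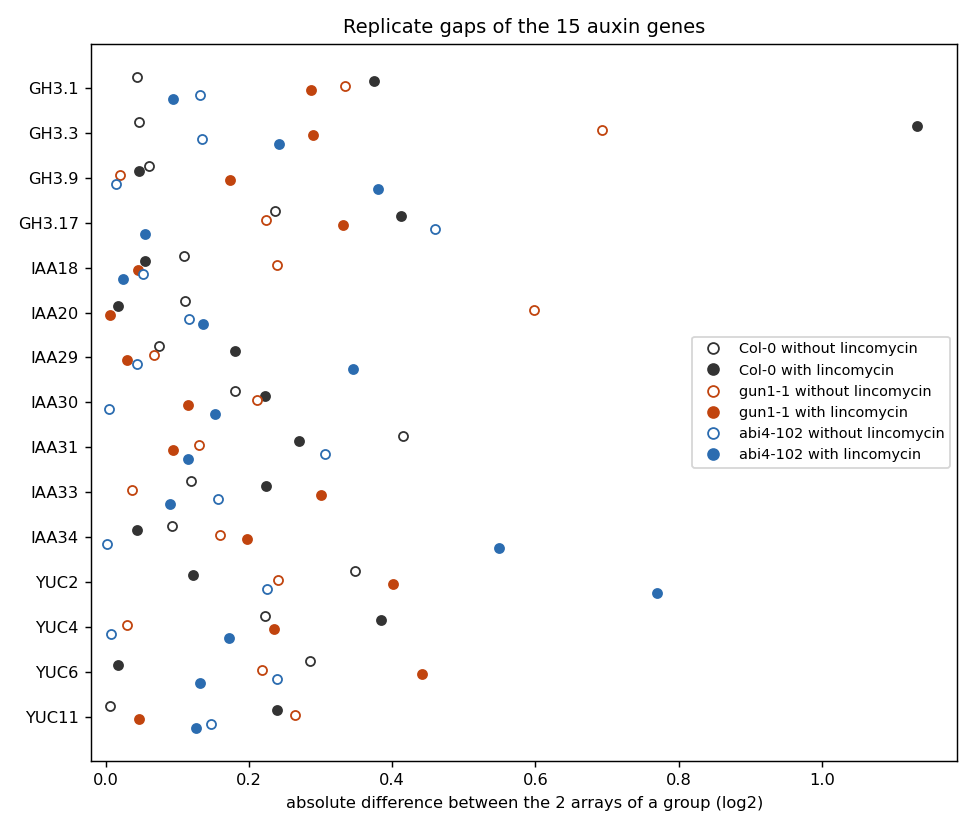
Absolute log2 difference between the 2 arrays of each group (points; open without, filled with lincomycin) for the 15 auxin genes. The widest gaps were 1.13 for GH3.3 in Col-0 with lincomycin and 0.77 for YUC2 in abi4-102 with lincomycin, and IAA18 had no gap above 0.24.

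The rest of the auxin pathway was sampled thinly. Of 147 loci in 10 lists, 26 were measured, the 15 genes and 11 others, while the lists of receptors with their ubiquitin ligase subunits and of other synthesis genes had no measured member. Of the 11, 1 rose and 1 fell with lincomycin in Col-0 (WES1 and AT5G51470), 0 rose and 2 fell in gun1-1 (WES1 and AT1G14120), and 0 rose and 1 fell in abi4-102 (AT1G14120). Their median log2 differences were 0.03, -0.25 and 0.00 in the same order. AT1G14120, a listed locus without a symbol in the gene table, fell by 1.38 in gun1-1 (SE 0.28, adjusted p = 0.0111). In abi4-102 it fell by 1.26 (adjusted p = 0.0133), and in Col-0 its difference was -0.60 (adjusted p = 0.176, or from 0.0172 without either array of gun1-1 with lincomycin to 0.465 without Col-0 with lincomycin replicate 2). Its value in gun1-1 came to -0.83 without gun1-1 with lincomycin replicate 2. Its call there was lost when no other genotype was fitted (limma adjusted p = 0.0773) and without gun1-1 without lincomycin replicate 1 (-1.32). Its call in abi4-102 was lost without abi4-102 without lincomycin replicate 2 (-1.10) or with lincomycin replicate 1 (-1.15). AT1G14130, also without a symbol, stood 0.46 higher with lincomycin in Col-0 (SE 0.16, unadjusted p = 0.0143, limma adjusted p = 0.071). Its differences were -0.17 in gun1-1 and 0.13 in abi4-102, and it passed in no genotype. The response in gun1-1 minus that in Col-0 was -0.63 (unadjusted p = 0.016, limma adjusted p = 0.166). WAG2 and PID2, kinases related to PINOID, a regulator of PIN transporters, did not pass with lincomycin in any genotype. Nor did LBD16 and LBD29, auxin-induced regulators of lateral roots, HAT2, an auxin-induced homeodomain gene, or UGT84B1, a glucosyltransferase acting on auxin. Without lincomycin WAG2 averaged 6.78 in abi4-102 and 5.82 in Col-0, and HAT2 7.40 and 6.69. With lincomycin the means were 6.77 and 6.33 for WAG2 and 7.30 and 6.71 for HAT2. Neither gene was a call in these comparisons. The median of the 11 loci for abi4-102 minus Col-0 was 0.07 without and 0.04 with lincomycin.

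Markers of cell types were measured in part. Of 4 mesophyll markers 2 were measured, PSAE-1 and LHCB4.2, and both fell with lincomycin in every genotype, with log2 differences of -1.87 and -1.47 in Col-0, -0.48 and -0.41 in gun1-1 and -1.52 and -0.61 in abi4-102. In gun1-1 the calls were lost under 5 of 18 alternatives for PSAE-1 and 10 of 18 for LHCB4.2, where quantile normalization again gave -0.31 and -0.30 (adjusted p = 0.0939 and 0.105). In abi4-102 LHCB4.2 lost its call without replicate 1 without lincomycin (0.0557). Their summed linear signal was 8600 to 9310 in Col-0 without and 2730 to 2760 with lincomycin, 9220 to 9500 and 6730 to 6960 in gun1-1, and 7900 to 8130 and 3670 to 3690 in abi4-102. Both are photosynthesis genes, and fewer mesophyll cells and less of this RNA per cell cannot be told apart. Of 5 root hair markers 2 were measured, and EXPA18 rose in gun1-1 (1.18, SE 0.31, adjusted p = 0.035), a call lost under 6 of 18 alternatives. Its difference was 0.64 without gun1-1 with lincomycin replicate 1 (adjusted p = 0.165), and its call was also lost without either array of Col-0 (0.0552) or of gun1-1 (0.0808 and 0.152) without lincomycin. EXPA7 did not pass, and the pair's summed signal in gun1-1 was 56.2 to 58.1 without and 69.0 to 150 with lincomycin, against 62.6 to 65.2 and 63.1 to 84.8 in Col-0 and 60.7 to 83.2 and 66.8 to 74.6 in abi4-102. Markers of epidermis, guard cells, vasculature and seed remnants were not analysed here. The part of these markers in the differences of GH3.3, WES1, IAA29 and IAA34 was not tested.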

How the data were processed

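The deposited table holds a log2 value per probe set and array, which the authors computed with RMA according to the submitters' processing notes. The sources used here do not give its version. That the scale is log2 follows from the range of the values. RMA makes array distributions alike and tends to compress the differences of dim probe sets. Of 22810 probe sets, 64 controls were left out and 22746 tested. limma 3.58.1 in R 4.3.3 fitted 6 group means on all 12 arrays (6 residual degrees of freedom), without a block. The tests were checked on simulated data. Samples were grouped by title. The labels do not say whether replicates were grown separately: each p-value reflects no more than the variation among these arrays, which may be technical. Identical values were found in 0 of 6 replicate pairs. The number of arrays limits the precision.

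The genes, lists and rules were chosen with earlier results of these data known. Values per array were given by rule for GH3.3, all called members and the member with the smallest p of a family without calls. Of each other list, up to 3 calls each way were named by rule, or the genes with the smallest p where there was none. GH3.17, IAA18 and YUC2 were named, and the means of WAG2 and HAT2 given, after their values were seen. The gene table of assembly TAIR10.1 served for names only. Alternatives were a replicate block, fits without the groups outside a comparison, a robust prior with an intensity trend, median centring, repeated quantile normalization, the upper 60% of probe sets, and omitting the 12 arrays one by one, where the lone array left in a group is assumed to vary like the other groups.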

Additional observations from a re-analysis of the deposited data

Results flagged for a closer look

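The lincomycin response of WES1 (GH3.5) differed between genotypes by the test of the difference itself: in gun1-1 it was lower than in Col-0 by a log2 difference of -1.24 (limma adjusted p = 0.00256). The marker genes PSAE-1 (1.39, adjusted p = 0.00116) and LHCB4.2 (1.06, adjusted p = 0.00462) had higher responses, that is smaller falls, in gun1-1 than in Col-0. The response of PSAE-1 in gun1-1 was also higher than in abi4-102 (1.04, adjusted p = 0.0145), a call lost under 5 of 18 alternatives, with an adjusted p up to 0.0701 when an array was left out.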

How the results depend on the processing

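Of the counts of called auxin genes, those of the 3 differences of response, of gun1-1 against Col-0 and of abi4-102 against Col-0 with lincomycin stayed at 0 under every alternative run. With lincomycin in Col-0 the count was 2 after quantile normalization again, which added IAA29 (-0.40, adjusted p = 0.0416), and 1 to 2 when an array was left out. In gun1-1 it was 0 to 1 when an array was left out. In abi4-102 it was 1 in a fit of its own arrays, where GH3.3 passed and IAA29 and IAA34 (adjusted p = 0.0759 and 0.106) did not, and 0 to 3 when an array was left out. For abi4-102 against Col-0 without lincomycin it was 1 with the upper 60% of probe sets, since IAA34 was then not tested, 3 when those 4 arrays were fitted alone, which added GH3.3 (adjusted p = 0.0114), and 0 to 2 when an array was left out. With the upper 60% of probe sets GH3.3 also passed for lincomycin in abi4-102 (limma adjusted p = 0.0385), where IAA34 was not tested. The range when an array was left out crossed 0 for abi4-102 minus Col-0 with lincomycin in GH3.3 (-0.97 to 0.17), WES1 (-0.14 to 0.024), IAA29 (-0.039 to 0.31) and IAA34 (-0.22 to 0.32). It also did for gun1-1 minus Col-0 with lincomycin in GH3.3 (-0.66 to 0.48) and for lincomycin in Col-0 in YUC6 (-0.12 to 0.17). The cause was not tested. The replicate block moved no count of called auxin genes (1, 1 and 2 with lincomycin in Col-0, gun1-1 and abi4-102), but WES1 lost its call in gun1-1 (adjusted p = 0.0533) and against Col-0 in abi4-102 without lincomycin (adjusted p = 0.0586), and AT5G51470 lost its call in Col-0 (adjusted p = 0.0548). Deviations of arrays with the same number correlated at -0.28 to 0.28 over 15 pairs of groups, above 0.1 in 3, so the numbers were not taken to pair the arrays. Median centring and quantile normalization moved the median of all probe sets by -0.02 to 0.05. The alternative of another probe set per gene was not run, as no gene of the 15 has one.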
